A study of Rattus norvegicus with 9 samples.

Results

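The comparison of imiquimod-treated with untreated rat back skin was described across every gene row of the authors' table for it, 6025 gene IDs of the 6197 found in either of the series' tables. The rule took all rows and used no measured value beyond those by which the authors had listed them. RNA was sequenced from whole back skin of Sprague Dawley rats of 250 g. The 3 imiquimod samples came from rats given imiquimod on the back for 6 days, and the 3 untreated samples from rats given nothing; skin of both was taken on day 7. All were wild type rats without a labelled transgene, no vehicle group is among the labelled groups, and an effect of vehicle or handling therefore cannot be told apart from that of the drug. The series has 9 samples in all, and its 3 samples with added epidural lidocaine enter only 1 count at the end.

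Imiquimod is a small agonist of Toll-like receptor 7, a sensor of RNA in endosomes. Its repeated use on rodent skin brings interferon, inflammatory cells and a thickened, scaling epidermis, and it is widely used as a model of psoriasis. Skin RNA is a mixture of epidermis, hair follicles, sebaceous glands, dermis, vessels and resident or arriving leukocytes, so a gene's level in the whole tissue follows both the number of cells and the RNA in each of them, and fewer cells of a type and less RNA per cell cannot be told apart.

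Values were normalized read counts on 1 scale for all libraries, and differences were taken, imiquimod minus untreated, on the log2(normalized count + 1) scale. Reads on the listed rows came to between 15947423 and 19659521 per imiquimod library and between 18492342 and 22929894 per untreated library. In limma's test with Benjamini-Hochberg adjustment, 5287 of 6025 rows (87.8%) passed an adjusted p of 0.05, 2831 higher (47%) and 2456 lower (40.8%), and the groups did not overlap in 5222 rows (86.7%). These shares are the background for every count below. Nothing in the labels says that the samples of a group came from separate animals, so a p-value here reflects how far these samples vary. The smallest difference in the table was 1.0, so the rows had been picked for their difference in these very libraries; the adjusted p-values are therefore too small, and a gene that is not listed is not shown to be unchanged. The median difference over all rows was 1.15. Scaling each library to an equal total of listed counts put it at 1.58, and doing so without the 100 highest rows put it at 0.85, so differences shift with the scaling and some calls are lost by it. Equal totals gave 3016 higher and 1781 lower rows, and equal totals without the 100 highest rows turned the balance to 2419 higher and 2559 lower, so the background shares move with the scaling too.

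The labels call the tissue back skin, and the defining genes of skin were abundant. Of 8 epidermal markers 3 were listed, 1 of them called higher and 1 lower. Their summed level was 342302 to 764686 normalized counts in imiquimod skin and 329373 to 420602 in untreated skin. Most of the imiquimod sum was Krt14, the marker called higher, with 640964, 437918 and 319029, so the sum hides the opposite change. All 7 hair follicle markers were listed and lower, summing to 1296, 33954 and 132184 in imiquimod skin and 939159 to 2047494 in untreated skin. All 5 T cell markers and all 5 macrophage markers were listed and higher. T cell markers summed to 16200 to 21472 in imiquimod skin against 506 to 1931 in untreated skin, and macrophage markers to 63847 to 84461 against 5392 to 10778. Imiquimod replicate 2 stood apart in having the lowest hair follicle sum and the highest sum of the 3 listed blood markers, 57491, against 10421 and 14469 in the other imiquimod libraries and 6649 to 12234 in untreated skin.

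The counts of the listed rows were spread over more rows in imiquimod skin, and genes that are not listed enter neither side. The 147, 173 and 205 highest rows of the 3 imiquimod libraries held 50% of the listed counts, against 48, 47 and 38 rows in untreated skin. The 10 highest rows of untreated skin, which are collagen, Sparc, keratin and keratin-associated rows, held 3.46%, 3.55% and 4.60% of listed counts in imiquimod skin, against 26.2%, 23.8% and 35.1% in untreated skin. Every imiquimod library was below every untreated library in the share of these rows. The rows had been picked for their level in untreated skin, among rows listed for a difference. The choice itself favoured this direction. Among these 10 rows, 2 gene IDs are both described as collagen type I alpha 2 and have similar counts. The shares above may therefore count this gene 2 times. Col1a1, the main chain of type I collagen, had 192401, 163099.8 and 192846 normalized counts in imiquimod skin, against 1311119, 1029176 and 2262257 in untreated skin (log2 difference -2.99 with SE 0.36, limma adjusted p = 0.0010). The matricellular protein gene Sparc, which binds collagen, had 99462, 91592 and 108362 normalized counts in imiquimod skin, against 642715, 477874 and 1055279.9 in untreated skin (log2 difference -2.79 with SE 0.36, limma adjusted p = 0.0013). Krt71, an inner root sheath keratin of the hair follicle, had 16437, 972 and 63412 normalized counts in imiquimod skin, against 567069, 820555 and 400287 in untreated skin (log2 difference -5.83 with SE 1.47, limma adjusted p = 0.012). No library of imiquimod skin reached the level of untreated skin for these 3 genes, and the groups did not overlap in 86.7% of all rows. Krt71 varied the most among the imiquimod libraries, with replicate 2 the lowest.

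The 10 highest rows of imiquimod skin were of another kind. Col1a1 and Col3a1 were still among them, and the other 8 were all called higher. Rows picked for their imiquimod level are favoured to be higher there, so this direction is no separate result. Krt14, the keratin of basal epidermal cells, led with 640964, 437918 and 319029 normalized counts in imiquimod skin, against 181459.7, 208251 and 182379 in untreated skin (log2 difference 1.23 with SE 0.34, limma adjusted p = 0.015). B2m, the light chain of MHC class I molecules, had 340671, 258131 and 263432 normalized counts in imiquimod skin, against 35446, 30044 and 44084 in untreated skin (log2 difference 2.98 with SE 0.29, limma adjusted p = 0.00044). Lyz2, the lysozyme gene of myeloid cells, had 116769, 106008 and 174088 normalized counts in imiquimod skin, against 6319, 5279.7 and 10768 in untreated skin (log2 difference 4.18 with SE 0.38, limma adjusted p = 0.00036). The groups did not overlap for any of the 3, as in 86.7% of all rows. Slfn4, a schlafen gene of myeloid cells in the mouse, reached this rank from a low level, with 113253, 210536 and 129125 normalized counts in imiquimod skin, against 438, 245 and 493 in untreated skin (log2 difference 8.60 with SE 0.41, limma adjusted p = 4.9e-05). The remaining genes of this rank were Cd74 (2.22), the class II invariant chain, Tmsb4x (1.68), which binds actin monomers, the ferritin heavy chain gene Fth1 (1.58) and Psap (1.42), the precursor of the lysosomal saposins, given as log2 differences. Together these 10 rows held 14.2%, 11.3% and 11.2% of listed counts in imiquimod skin, against 11.9%, 8.84% and 19.4% in untreated skin.

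**Figure D1:**
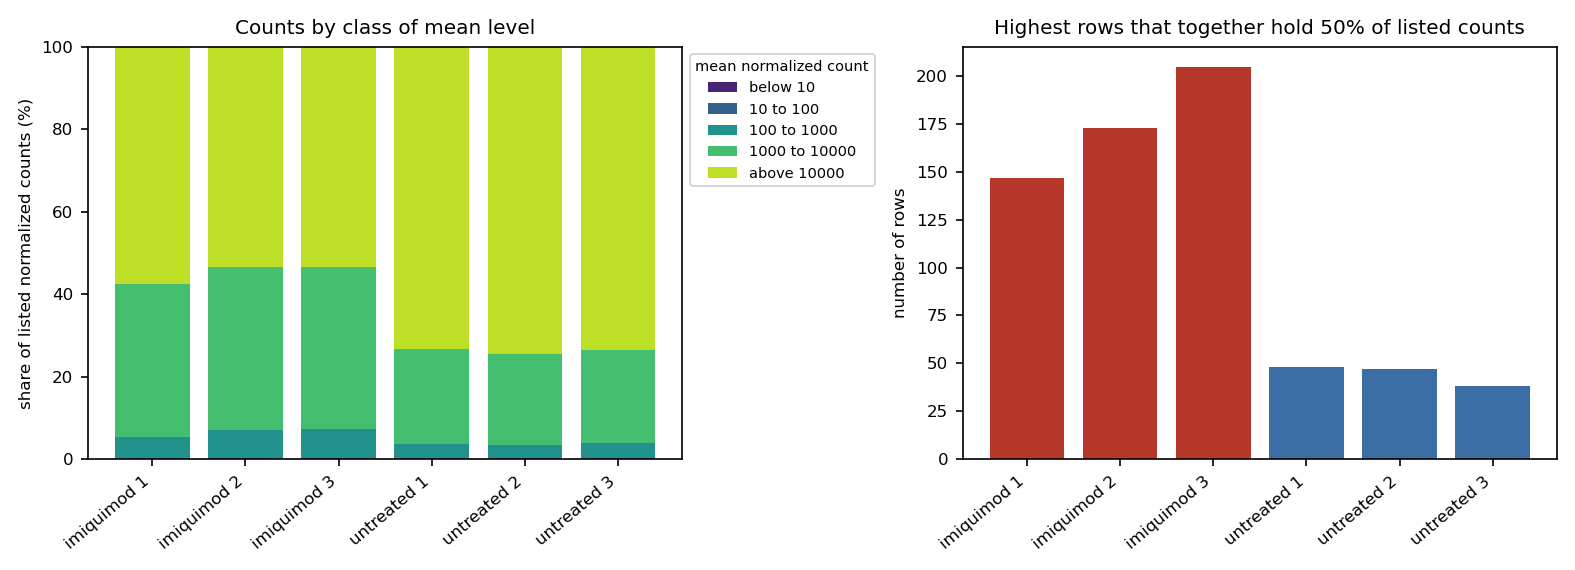
Left, share of listed normalized counts by class of the row's mean level over the 6 libraries, in percent, for each imiquimod and untreated library. Right, the number of highest rows that together hold 50% of a library's listed counts. Rows above 10000 hold 53.3% to 57.6% of counts in imiquimod skin and 73.3% to 74.4% in untreated skin, and 50% of counts needs 147 to 205 rows in imiquimod skin and 38 to 48 in untreated skin.

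The balance of directions differed between abundance classes but depended on the scaling. Of 312 rows with a mean above 10000 normalized counts, 136 were higher and 159 lower, with a median difference of -1.04. Of 1845 rows between 1000 and 10000, 976 were higher and 784 lower, and of 2100 rows between 100 and 1000, 1012 were higher and 825 lower. Among 1200 rows between 10 and 100, 495 were higher and 572 lower. Under equal totals more rows were higher than lower in every class, with 141 and 113 above 10000 and 521 and 408 between 10 and 100, and without the 100 highest rows the class of 100 to 1000 turned to 830 higher and 858 lower. The 568 rows below 10 were called least often, 212 higher and 116 lower, a share of 57.7% against 87.8% over all rows. The rows above 10000 held 57.6%, 53.3% and 53.5% of listed counts in imiquimod skin and 73.3%, 74.4% and 73.5% in untreated skin.

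More rows were without a single read in untreated skin than in imiquimod skin. In untreated skin, 378 rows were at 0 in all 3 libraries, of which 248 were above 0 in all 3 imiquimod libraries, 125 in 2 and 5 in 1. In imiquimod skin, 180 rows were at 0 in all 3 libraries, of which 83 were above 0 in all 3 untreated libraries, 94 in 2 and 3 in 1. A mean of at least 100 normalized counts in the other group was reached by 42 rows of the first kind and by 8 of the second. Since a count of 0 still allows 3 reads in a library, folds below are lower bounds against 3 reads, which are 3.20 normalized counts on average per untreated library and 2.70 per imiquimod library. These bounds cover counting error only, since no molecular identifier is named for these reads.

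Among genes at 0 in untreated skin, those with the most imiquimod reads included defensin, protease and natural killer receptor genes. Defb52, a beta-defensin, had 3175, 4543 and 6115 normalized counts in imiquimod skin, at least 1442-fold higher. Acod1, which makes itaconate in activated macrophages, had 1326, 1478 and 3981, at least 707-fold higher. Mmp12, the macrophage elastase, had 4061, 1556 and 1302, at least 721-fold higher. Tnip3, which restrains NF-kB signalling, had 712, 644 and 966, at least 242-fold higher. The natural killer receptor genes Klra5 (1192, 740 and 841 normalized counts) and Ly49i2 (671, 743 and 1027) also had no untreated reads, at least 289-fold and 254-fold higher. Their family of near-identical genes makes the counting of single members uncertain, since 2 others, Ly49i7 and LOC100911272, had the same value as each other in every library. The row with the most reads of this kind was LOC497963, described in the table as similar to inducible nitric oxide synthase, with 2812, 5285 and 9479 normalized counts in imiquimod skin and none in untreated skin. Wdr62, a scaffold of the mitotic spindle, had 512, 422 and 370.3 normalized counts in imiquimod skin. Kcna3, a potassium channel of T cells, had 113, 235 and 217. Kcna3, Ly49i7 and the predicted genes (LOC names) given here were chosen after their values were seen.

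The genes at 0 in imiquimod skin were fewer and had lower counts in the other group. Chga, the secretory granule protein chromogranin A, had no reads in imiquimod skin, against 312, 318 and 375 normalized counts in untreated skin, at least 124-fold lower. Hsd3b2, which makes progesterone and androstenedione from their precursors, had none against 188, 179.7 and 195, at least 69.4-fold lower. Cyp17a1, the steroid 17-hydroxylase and lyase, had none against 164, 139 and 136, at least 54.2-fold lower. A predicted gene described as another 3 beta-hydroxysteroid dehydrogenase, LOC108348086, had none against 264, 287 and 367. Dmgdh, which oxidises dimethylglycine in mitochondria, had none against 53.0, 43.4 and 24.3, at least 14.9-fold lower. The 2 rows named LOC108348105, described as like the cat allergen Fel d 4 of the lipocalin family, had none against means of 852 and 560 in untreated skin. Leaving out imiquimod replicate 1, 2 or 3 gave 202, 201 or 246 such rows in place of 180.

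**Figure D2:**
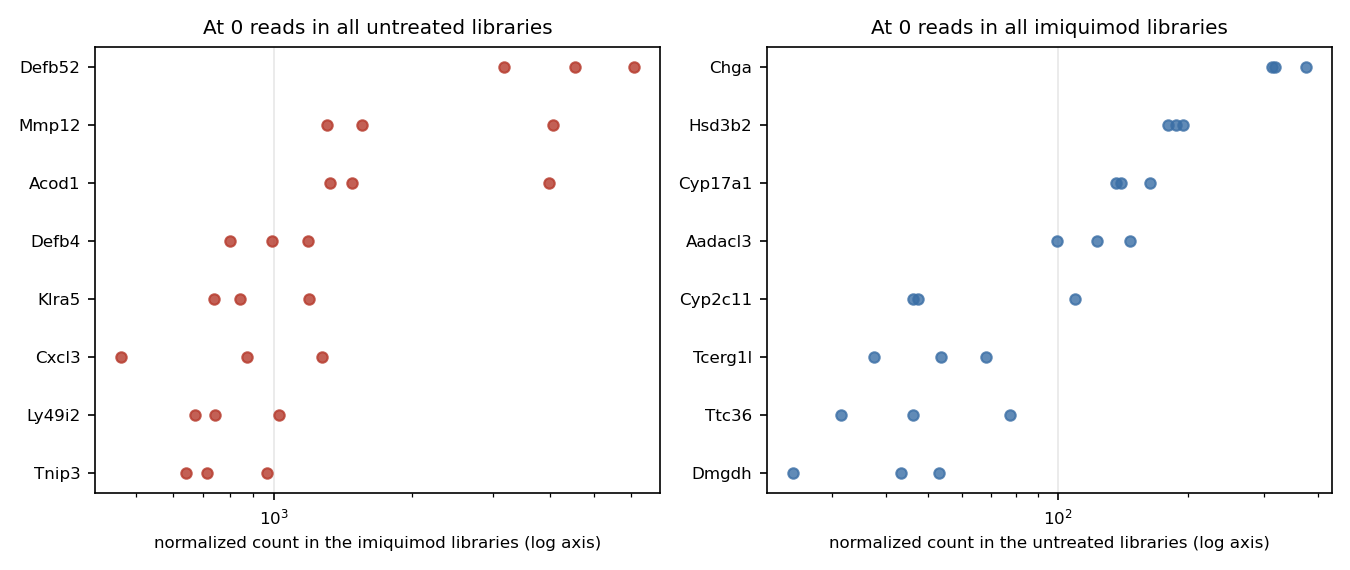
Normalized counts per library (log axis) of the 8 named genes with the highest mean in the other group, for genes at 0 reads in all untreated libraries (left, points are the 3 imiquimod libraries) and at 0 reads in all imiquimod libraries (right, points are the 3 untreated libraries). The left panel runs from 462 to 6115 normalized counts and the right from 24.3 to 375.

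Grouping the symbols by their first letters gave 50 prefixes with at least 10 listed rows. In 3 of them (Tnfsf, Tlr and Cxcl, the TNF ligands, Toll-like receptors and CXC chemokines) every listed row was called higher, and in 2 (Krtap and Cldn, the keratin-associated proteins and claudins) every listed row was called lower. The families below lie beside these better known groups, and 88 of them had at least 5 listed rows. All listed members were higher in 10 of the 88 and lower in 3. Their counts are read against the background of 47% higher and 40.8% lower rows, which holds for the deposited scaling. Members given only by a difference, and Igtp, Batf2, Dock2, Olr1584, Rps2 and Rps2-ps2, were chosen after their values were seen.

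Antiviral effectors and ubiquitin enzymes stood at 81 higher and 19 lower of 111 listed rows, with a median difference of 2.05. Of 12 annotated genes of the PARP family, which attach ADP-ribose to proteins, 9 were listed and all 9 were higher, 8 of them under the scaling without the 100 highest rows. Parp14, an interferon-induced member, had 8137, 16425 and 15312 normalized counts in imiquimod skin, against 424, 372 and 675 in untreated skin (log2 difference 4.74 with SE 0.41, limma adjusted p = 0.00029). Its partner in infected cells Parp9 had 10570.0, 13063 and 12574 normalized counts in imiquimod skin, against 1107, 852 and 1324 in untreated skin (log2 difference 3.48 with SE 0.29, limma adjusted p = 0.00026). Parp1, which acts in DNA repair, differed least, by 1.19. All 7 annotated GTPases of the immunity-associated family, which govern lymphocyte survival, were listed and higher, within a narrow range of 2.09 for Gimap1 to 3.48 for Gimap7. In the Trim family of ubiquitin ligases 13 of 20 were higher and 6 lower. Trim21, the cytosolic antibody receptor, had 3646, 5467 and 5432 normalized counts in imiquimod skin, against 350.1, 301 and 596 in untreated skin (log2 difference 3.58 with SE 0.37, limma adjusted p = 0.00058). Trim2, a neuronal ligase in the mouse, had 335, 323 and 609.8 normalized counts in imiquimod skin, against 2302, 2656 and 2159.7 in untreated skin (log2 difference -2.55 with SE 0.34, limma adjusted p = 0.0014).

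The schlafen, CCCH zinc finger, Sp100 and immunity-related GTPase groups had no member called lower. Of the schlafen genes, 4 of 5 were higher, and Slfn2, needed for T cell quiescence in the mouse, had 35541, 27722 and 32551 normalized counts in imiquimod skin, against 2026, 2043 and 2924 in untreated skin (log2 difference 3.79 with SE 0.29, limma adjusted p = 0.00021). All 6 listed CCCH zinc finger genes were higher (5 under the scaling without the 100 highest rows), among them Zc3h12a, whose product Regnase-1 degrades cytokine mRNA, with 4214, 3816 and 5074 normalized counts in imiquimod skin, against 737, 937 and 1136 in untreated skin (log2 difference 2.23 with SE 0.29, limma adjusted p = 0.0013). The groups were apart in every library for both genes, as they were in 86.7% of all rows. All 3 annotated nuclear body genes of the Sp100 kind were higher, at 3.12 for Sp140, 3.64 for Sp110 and 3.77 for Sp100. Both listed immunity-related GTPases, Igtp and Irgm, were higher, by 5.19 and 5.01. Of the ubiquitin ligase genes named Rnf, 9 of 18 were higher and 6 lower. Rnf213, a giant ligase with an ATPase domain, had 6908, 23274 and 18262 normalized counts in imiquimod skin, against 191, 169 and 246 in untreated skin (log2 difference 6.16 with SE 0.51, limma adjusted p = 0.00025). Rnf39 had 1289, 1100.1 and 1614 normalized counts in imiquimod skin, against 11309, 13509 and 10026 in untreated skin (log2 difference -3.13 with SE 0.29, limma adjusted p = 0.00036). Usp18, which strips the modifier ISG15 from proteins and damps interferon receptor signalling, had 13644, 15446 and 13511 normalized counts in imiquimod skin, against 278, 217 and 452 in untreated skin (log2 difference 5.55 with SE 0.35, limma adjusted p = 0.00011). Nucleotide salvage genes were higher in 9 of 12 and lower in 2, led by Samhd1, which destroys the nucleotides that viruses need for DNA synthesis, with 8303, 31024 and 22414 normalized counts in imiquimod skin, against 94.4, 119.8 and 163 in untreated skin (log2 difference 7.18 with SE 0.55, limma adjusted p = 0.00021). Cmpk2, a mitochondrial nucleotide kinase, had 7042, 12226 and 9373 normalized counts in imiquimod skin, against 123, 81.6 and 161 in untreated skin (log2 difference 6.30 with SE 0.38, limma adjusted p = 9.5e-05). In contrast, Nt5dc2 of the same list had 456, 365 and 414 normalized counts in imiquimod skin, against 2838, 3623 and 2062 in untreated skin (log2 difference -2.75 with SE 0.31, limma adjusted p = 0.00081).

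The core letters of an interferon-stimulated response element were present in promoters of a larger share of genes called higher than of genes called lower. This is a description without a test. The element is bound by interferon regulatory factors and, with STAT proteins, drives interferon-induced genes. It was searched on both strands as GAAA, 2 bases of any kind and GAAA again, which reads as TTTC, 2 bases and TTTC where it lies on the other strand, in the 250 bases before and 50 after each start in RefSeq (GRCr8). Genes with a promoter were counted, and a gene with several promoters counted as a match if any of them held one. A match was present in 134 of 1803 genes called higher (7.43%) and in 40 of 1561 genes called lower (2.56%). Over all 19005 protein-coding genes it was 742 (3.90%). A match was present in 102 of 1018 genes higher by more than 4-fold and in 51 of 366 genes (13.9%) higher by more than 16-fold. Among genes lower by more than 4-fold it was 2.15% of 698, and by more than 16-fold 2.58% of 194. A match is a description of the letters and was not tested as a binding site, and no match says only that these letters are not in this window. The windows of 8 members are shown, 5′ to 3′ on the gene's strand. They were taken because they carry the match in genes described here or further on. The 10 bases of the first match are in capitals. The Trim21 promoter holds 2 matches, and the second overlaps the first.
Parp14 (chr11:78408043-78408082, plus strand): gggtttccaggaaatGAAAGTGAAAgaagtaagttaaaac
Parp12 (chr4:68850535-68850574, minus strand): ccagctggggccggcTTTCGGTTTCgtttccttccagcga
Igtp (chr10:42874929-42874968, plus strand): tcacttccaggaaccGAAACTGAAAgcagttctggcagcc
Irgm (chr10:33742588-33742627, minus strand): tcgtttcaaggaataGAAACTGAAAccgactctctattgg
Trim21 (chr1:166399365-166399404, minus strand): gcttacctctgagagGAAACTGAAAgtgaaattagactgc
Sp110 (chr9:93670693-93670732, minus strand): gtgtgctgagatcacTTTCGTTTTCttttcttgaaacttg
Casp1 (chr8:10872787-10872826, plus strand): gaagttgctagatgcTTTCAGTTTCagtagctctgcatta
Batf2 (chr1:212897258-212897297, plus strand): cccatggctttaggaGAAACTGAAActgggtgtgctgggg
Igtp, Irgm, Trim21 and Batf2 hold the same 10 bases, GAAACTGAAA, and Casp1 holds their reverse complement, TTTCAGTTTC. The 8 windows were chosen after the values were seen. Of the families, 3 of 8 higher Parp genes, 3 of 8 Trim genes and both immunity-related GTPases with a promoter in the table had a match. None of 7 Gimap, 12 Arhgap and 20 glycosyltransferase genes had one. Other families went both ways, with a match in 2 of 3 caspase, 1 of 3 schlafen and 1 of 8 Rnf genes. None of 6 CCCH zinc finger and 3 Usp genes had one. The families given here are a selection from those searched. At the share of 7.43% over all higher genes, few or no matches are to be expected in families of these sizes. Batf2, a leucine zipper factor of macrophages and dendritic cells, had 147, 518 and 908 normalized counts in imiquimod skin, against 4.61, 3.10 and 0 in untreated skin (log2 difference 7.18 with SE 0.90, limma adjusted p = 0.0012). Igtp had 5203, 9211 and 9582 normalized counts in imiquimod skin, against 191, 144 and 339.5 in untreated skin (log2 difference 5.19 with SE 0.44, limma adjusted p = 0.00028).

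Genes of inflammasomes and caspases were nearly all higher. Of 9 listed NOD-like receptor genes 8 were higher and 1 lower, with a median difference of 4.91. Nlrc4, the core of the inflammasome for bacterial flagellin, had 361, 758 and 919 normalized counts in imiquimod skin, against 10.4, 17.6 and 5.07 in untreated skin (log2 difference 5.86 with SE 0.55, limma adjusted p = 0.00040). Naip6, a sensor upstream of it, had 1292, 871 and 1544 normalized counts in imiquimod skin, against 24.2, 26.9 and 43.6 in untreated skin (log2 difference 5.26 with SE 0.37, limma adjusted p = 0.00016). The exception was Nlrp10, expressed in the epidermis, with 1186, 161 and 1020.1 normalized counts in imiquimod skin, against 3491, 2977 and 2862 in untreated skin (log2 difference -2.41 with SE 0.78, limma adjusted p = 0.027). Imiquimod replicate 2 was far below the other imiquimod libraries, and the difference was -1.49 without it (limma adjusted p = 0.011). Leaving out any 1 untreated library or scaling to equal totals ended the call. All 6 listed caspase genes were higher. Casp1, which cleaves pro-interleukin-1 beta, had 6793, 7552 and 7626 normalized counts in imiquimod skin, against 969.8, 1096 and 1212 in untreated skin (log2 difference 2.75 with SE 0.25, limma adjusted p = 0.00036). Casp4, a sensor of bacterial lipopolysaccharide, had 2465, 2142 and 2294 normalized counts in imiquimod skin, against 483, 464 and 594 in untreated skin (log2 difference 2.17 with SE 0.26, limma adjusted p = 0.00093). The apoptotic members Casp8 and Casp9 differed by 2.002 and 1.08.

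Receptors of leukocytes had the largest family medians. All 5 annotated genes with a Slamf symbol, receptors that mostly bind each other between blood cells, were higher, with a median of 5.91. Slamf9 had 24084, 17991 and 14488 normalized counts in imiquimod skin, against 122, 129 and 176 in untreated skin (log2 difference 7.03 with SE 0.32, limma adjusted p = 4.5e-05). Slamf8 had 2824, 2729 and 3463 normalized counts in imiquimod skin, against 93.3, 43.4 and 89.2 in untreated skin (log2 difference 5.37 with SE 0.38, limma adjusted p = 0.00016). All 9 listed Ms4a genes, whose products span the membrane 4 times, were higher with a median of 6.10, and Ms4a7 had 15267, 9822 and 8884 normalized counts in imiquimod skin, against 134, 151 and 182 in untreated skin (log2 difference 6.15 with SE 0.32, limma adjusted p = 6.5e-05). Each library of imiquimod skin was above each of untreated skin for these genes. The groups did not overlap in 86.7% of all rows, so this is no separate result. All 6 listed leukocyte immunoglobulin-like receptors were higher with a median of 7.22, led by the inhibitory Lilrb4 with 30883, 12701 and 15755 normalized counts in imiquimod skin, against 21.9, 33.1 and 62.8 in untreated skin (log2 difference 8.96 with SE 0.52, limma adjusted p = 8.7e-05). Near-identical members of the last group can share reads, so its single values are uncertain. All 9 listed adaptors that tune antigen receptors (Lair, Tagap, Sash and Sla genes) were higher, and Sla had 5281, 5281 and 4581 normalized counts in imiquimod skin, against 239.6, 170.4 and 332 in untreated skin (log2 difference 4.39 with SE 0.33, limma adjusted p = 0.00020). The summed T cell and macrophage markers moved with these families, as given above, and their part in the result was not tested.

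Enzymes behind these receptors followed in part. Of 8 phosphoinositide 3-kinase genes 5 were higher and 2 lower. Pik3ap1, the adaptor of B cells and macrophages, had 9162, 12149 and 10788 normalized counts in imiquimod skin, against 219, 159 and 422 in untreated skin (log2 difference 5.43 with SE 0.42, limma adjusted p = 0.00022). Pik3c2g had 60.1, 43.5 and 54.8 normalized counts in imiquimod skin, against 212, 207 and 301 in untreated skin (log2 difference -2.15 with SE 0.29, limma adjusted p = 0.0015). Of 7 listed phosphodiesterases of cyclic nucleotides and oligonucleotides, 6 were higher and none lower. Pde4b, a cyclic AMP phosphodiesterase of leukocytes and the target class of apremilast, had 600.1, 1948 and 1366 normalized counts in imiquimod skin, against 105, 33.1 and 236 in untreated skin (log2 difference 3.62 with SE 0.80, limma adjusted p = 0.0077). Dual specificity phosphatases, which switch off MAP kinases, went the other way, with 2 higher and 6 lower of 9 (4 lower under equal totals). Dusp14 had 1863, 2706 and 2822 normalized counts in imiquimod skin, against 17082, 18492 and 14046 in untreated skin (log2 difference -2.76 with SE 0.30, limma adjusted p = 0.00067). Dusp6, the phosphatase of ERK, had 6678, 5600.5 and 7022 normalized counts in imiquimod skin, against 2896, 2806 and 2481 in untreated skin (log2 difference 1.23 with SE 0.25, limma adjusted p = 0.0061). Ly6 and Lypd genes, small proteins anchored by a lipid, were divided, 4 higher and 6 lower of 12. Ly6e, which is interferon-induced, had 89848, 72308 and 62056 normalized counts in imiquimod skin, against 1161, 1015 and 5829 in untreated skin (log2 difference 5.28 with SE 0.70, limma adjusted p = 0.0014). By contrast, Lypd6, a modulator of Wnt signalling, had 24.4, 88.0 and 77.7 normalized counts in imiquimod skin, against 703, 862 and 550.3 in untreated skin (log2 difference -3.63 with SE 0.54, limma adjusted p = 0.0021).

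Among the regulators of small GTPases the counts differed by type, which was not tested. Arhgef exchange factors and Dock proteins switch GTPases of the cytoskeleton on, and Arhgap proteins switch them off. Of 17 listed Arhgap genes 14 were higher and 2 lower, of 6 Dock genes all were higher, and of 10 Arhgef genes 3 were higher and 7 lower (5 lower under equal totals). Arhgap30 had 6717, 7629 and 8395 normalized counts in imiquimod skin, against 296, 329.5 and 572 in untreated skin (log2 difference 4.30 with SE 0.34, limma adjusted p = 0.00023). Arhgap25, a gene of blood cells, had 3901, 3431 and 3349.7 normalized counts in imiquimod skin, against 418, 359 and 447 in untreated skin (log2 difference 3.12 with SE 0.25, limma adjusted p = 0.00024). Dock2, which drives Rac in migrating leukocytes, had 248, 815 and 936 normalized counts in imiquimod skin, against 6.91, 0 and 10.1 in untreated skin (log2 difference 7.01 with SE 1.03, limma adjusted p = 0.0020). Arhgef28 had 137, 221 and 235 normalized counts in imiquimod skin, against 1118, 1283 and 1153 in untreated skin (log2 difference -2.61 with SE 0.31, limma adjusted p = 0.00095). Arhgef26 had 53.1, 95.1 and 146 normalized counts in imiquimod skin, against 592, 373 and 589.8 in untreated skin (log2 difference -2.47 with SE 0.45, limma adjusted p = 0.0040). The 3 higher exchange factors were Arhgef6 (3.13), Arhgef2 (1.36) and Arhgef3 (1.35). Among the GTPases themselves, Rac2 and Rhoh, both of blood cells, rose by 3.56 and 4.42.

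Rows of G protein-coupled receptors and nucleotide receptors, some of which are ion channels, stood at 47 higher and 13 lower of 66. All 7 listed receptors of extracellular nucleotides were higher, with a median of 3.08. P2ry6, which senses UDP from damaged cells, had 2968, 1669 and 1529 normalized counts in imiquimod skin, against 164, 155 and 305 in untreated skin (log2 difference 3.31 with SE 0.42, limma adjusted p = 0.0012). P2rx4, a channel gated by ATP, had 5609.9, 4107 and 3975 normalized counts in imiquimod skin, against 777, 653 and 1049 in untreated skin (log2 difference 2.47 with SE 0.31, limma adjusted p = 0.0012). Among 33 orphan or former orphan Gpr genes 21 were higher and 8 lower. Gpr31, known in humans as a receptor of a hydroxy fatty acid, had 422, 479.7 and 292 normalized counts in imiquimod skin, against 0, 0 and 2.03 in untreated skin (log2 difference 8.08 with SE 0.52, limma adjusted p = 0.00012). Gpr37, found in oligodendrocytes and other neural cells, had 14.8, 57.7 and 83.4 normalized counts in imiquimod skin, against 677, 521 and 547 in untreated skin (log2 difference -3.76 with SE 0.64, limma adjusted p = 0.0033). Adgrg5 had 2465, 2901 and 2716 normalized counts in imiquimod skin, against 23.0, 8.26 and 50.7 in untreated skin (log2 difference 6.90 with SE 0.62, limma adjusted p = 0.00035). Of 12 olfactory receptor rows 11 were higher, nearly all at low levels, with a median of their mean counts of 15.3. Olr1584 had no reads in untreated skin and 63.6, 129 and 164 normalized counts in imiquimod skin. Receptor genes of this family are close copies, and which of them the reads came from is uncertain.

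**Figure D3:**
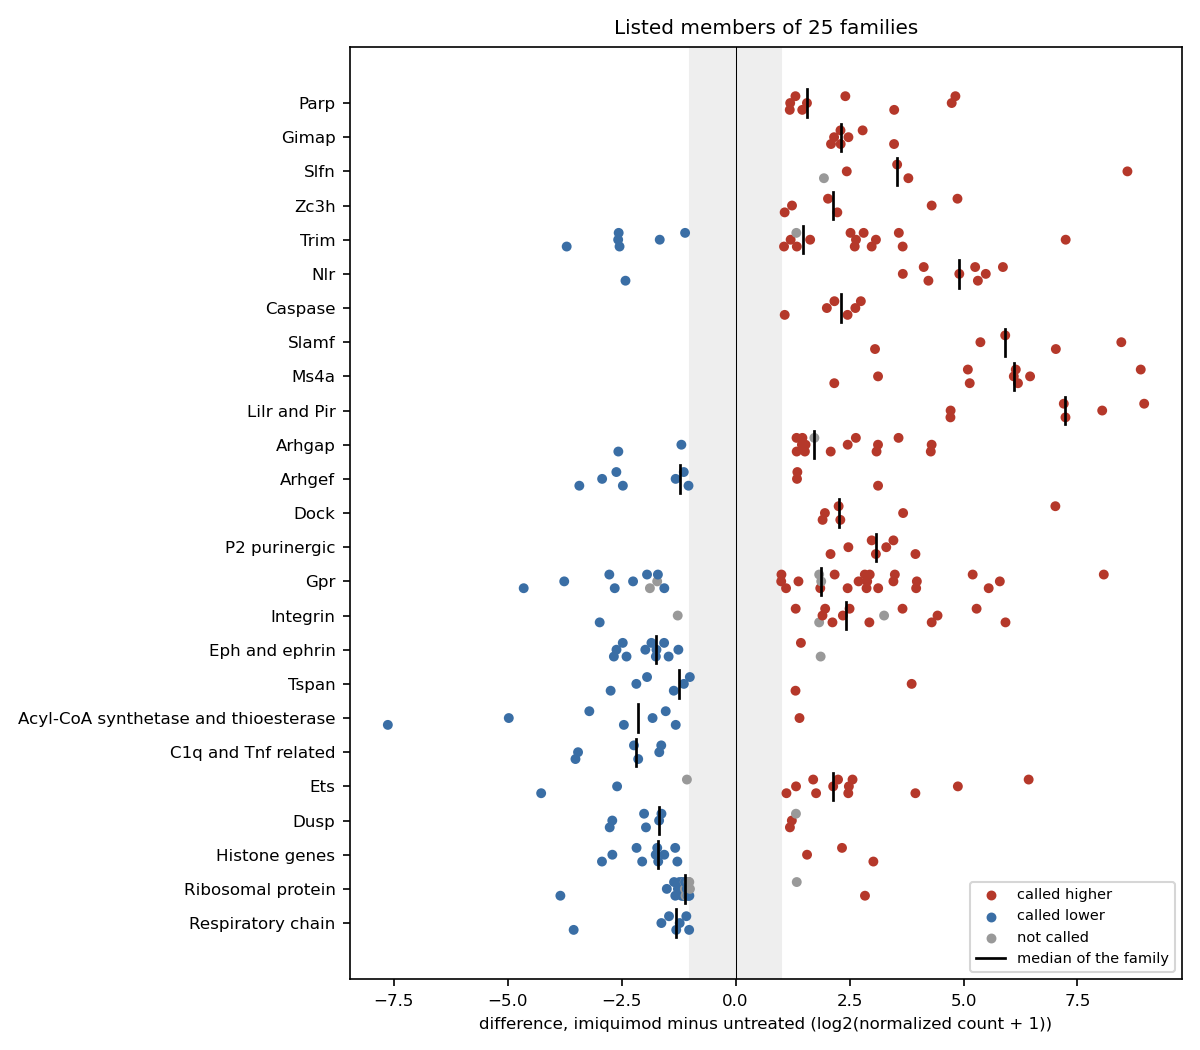
Each point is a listed member of 1 of 25 families, placed at its difference (imiquimod minus untreated, log2(normalized count + 1)); red points were called higher, blue points lower and grey points not called, and the black line is the family's median. No listed row lies in the grey band from -1 to 1. Median differences run from 7.22 for the leukocyte immunoglobulin-like receptors to -2.18 for the C1q and TNF related genes.

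Adhesion and guidance genes were divided much as all rows were, with 36 higher and 31 lower of 79. These are 45.6% and 39.2%, against 47% and 40.8% over all rows. Of 16 integrin subunits 12 were higher and 1 lower, with a median of 2.43. Itgal, a subunit of the lymphocyte integrin LFA-1, had 6399, 6257 and 7969.7 normalized counts in imiquimod skin, against 165, 108 and 295 in untreated skin (log2 difference 5.29 with SE 0.42, limma adjusted p = 0.00023). Its partner Itgb2 had 12571, 8023 and 7619 normalized counts in imiquimod skin, against 356, 304 and 704 in untreated skin (log2 difference 4.43 with SE 0.42, limma adjusted p = 0.00042). Itgax, which marks dendritic cells, rose by 5.92. The subunit called lower was Itga10, a collagen receptor of cartilage, at -2.98; without the 100 highest rows 2 were lower. Eph receptors and their ephrin ligands, which sort cells by contact and are known from epidermis and hair follicles, were lower in 11 of 13, also under both other scalings, with a median of -1.75. Ephb3 had 1171, 639.6 and 1286 normalized counts in imiquimod skin, against 6115, 7511 and 5416 in untreated skin (log2 difference -2.67 with SE 0.36, limma adjusted p = 0.0015). Epha1 had 3237, 2696 and 3008 normalized counts in imiquimod skin, against 8464, 9026 and 8953 in untreated skin (log2 difference -1.57 with SE 0.24, limma adjusted p = 0.0024). Of the ligands, Efna1, Efna3, Efna4, Efnb1, Efnb2 and Efnb3 were lower, by differences of -1.25 for Efnb1 to -2.47 for Efnb3, and Efna2 was higher by 1.43. Tetraspanins were lower in 6 of 8 (3 under equal totals), and Tspan17 had 359, 137 and 264 normalized counts in imiquimod skin, against 1636, 1966 and 1216 in untreated skin (log2 difference -2.74 with SE 0.44, limma adjusted p = 0.0026).

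Genes of lipid handling included large decreases. Of 8 acyl-CoA synthetases and thioesterases, which activate or release fatty acids, 7 were lower and 1 higher (5 lower under equal totals). Acsm1 had 19.2, 2.02 and 17.2 normalized counts in imiquimod skin, against 2211, 1702 and 2272 in untreated skin (log2 difference -7.63 with SE 0.76, limma adjusted p = 0.00050). Acsl4, which activates arachidonic acid, had 2395, 3968 and 3083 normalized counts in imiquimod skin, against 1178, 927 and 1451 in untreated skin (log2 difference 1.40 with SE 0.33, limma adjusted p = 0.0091). Pnpla5, a triglyceride lipase, had 42.7, 0 and 6.54 normalized counts in imiquimod skin, against 3208, 2798 and 1433 in untreated skin (log2 difference -8.41 with SE 1.32, limma adjusted p = 0.0025). Of 11 phospholipases A2, which release fatty acids from membranes, 6 were higher and 4 lower. Pla2g2e, found in hair follicles of the mouse, had 50.5, 5.06 and 208 normalized counts in imiquimod skin, against 4131, 5175 and 2947 in untreated skin (log2 difference -6.63 with SE 1.23, limma adjusted p = 0.0043). Pla2g4d, a cytosolic enzyme raised in human psoriasis, had 689.8, 2114 and 1593 normalized counts in imiquimod skin, against 4.61, 13.4 and 0 in untreated skin (log2 difference 8.26 with SE 1.01, limma adjusted p = 0.0011). The 4 listed sebaceous gland markers, all lower, summed to 1746 to 2853 normalized counts in imiquimod skin and 42142 to 70067 in untreated skin beside these decreases, and their part was not tested. Steroid dehydrogenases included Hsd17b14 with 149, 209 and 304 normalized counts in imiquimod skin, against 8172, 10052 and 5082 in untreated skin (log2 difference -5.13 with SE 0.41, limma adjusted p = 0.00023). Hsd11b1, which turns inactive into active glucocorticoid, had 3531, 4145 and 3655 normalized counts in imiquimod skin, against 1056, 1575 and 2265 in untreated skin (log2 difference 1.28 with SE 0.35, limma adjusted p = 0.016).

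Secreted proteins and transcription factors moved in both directions. All 6 listed C1q and TNF related genes, relatives of adiponectin, were lower, also under both other scalings, and C1qtnf6 had 1108, 797 and 1003 normalized counts in imiquimod skin, against 9302, 8344 and 15115 in untreated skin (log2 difference -3.46 with SE 0.34, limma adjusted p = 0.00046). The 4 listed fat cell markers were lower as well, summing to 18822 to 27437 in imiquimod skin and 46214 to 79820 in untreated skin. Of 6 cystatins, inhibitors of cathepsins, 5 were higher. Cst7, of lymphocytes, had 7096, 6075 and 6059 normalized counts in imiquimod skin, against 157, 152 and 307 in untreated skin (log2 difference 5.03 with SE 0.36, limma adjusted p = 0.00017). The exception Cst6, an inhibitor made in the epidermis and its follicles, had 19219, 6649.9 and 20517 normalized counts in imiquimod skin, against 173189.8, 205101 and 159351 in untreated skin (log2 difference -3.69 with SE 0.49, limma adjusted p = 0.0014). Of 6 lipocalins and odorant carriers 5 were lower, and Obp2a had 4.35, 0 and 0 normalized counts in imiquimod skin, against 248, 311 and 212 in untreated skin (log2 difference -7.19 with SE 0.70, limma adjusted p = 0.00046). Among 15 Ets transcription factors 12 were higher and 2 lower. Spi1, the master factor PU.1 of myeloid cells, had 9204, 5104 and 5953 normalized counts in imiquimod skin, against 358, 367 and 579.7 in untreated skin (log2 difference 3.94 with SE 0.36, limma adjusted p = 0.00036). Its relative Spic had 627, 676 and 709.5 normalized counts in imiquimod skin, against 27.6, 18.6 and 20.3 in untreated skin (log2 difference 4.88 with SE 0.27, limma adjusted p = 8.0e-05). Elf5, of epithelial cells, had 405, 582 and 472 normalized counts in imiquimod skin, against 2794, 4044 and 2202 in untreated skin (log2 difference -2.60 with SE 0.33, limma adjusted p = 0.0012). Of 13 histone rows 10 were lower and 3 higher, but leaving out single libraries left 4 to 10 lower and 1 to 3 higher. Hist3h2ba had 129.8, 55.7 and 82.6 normalized counts in imiquimod skin, against 691, 806 and 491 in untreated skin (log2 difference -2.93 with SE 0.40, limma adjusted p = 0.0016).

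Listed genes of protein synthesis and respiration were mostly lower by small amounts, and these calls depended on the scaling. Most annotated genes of these families are not listed. Of 34 listed ribosomal protein rows, against 294 annotated genes, 25 were lower and 1 higher, with a median of -1.11. Only 2 were lower under equal totals, whereas 32 were lower in the scaling without the 100 highest rows. Leaving out imiquimod replicate 2 or 3 or untreated replicate 1 or 2 left 2 or 3. Rps29, a protein of the small subunit picked after its values were seen, had 28258, 13359.6 and 14426 normalized counts in imiquimod skin, against 45946, 61765 and 31775 in untreated skin (log2 difference -1.35 with SE 0.43, limma adjusted p = 0.024). One pair stood apart: Rps2 had no reads in imiquimod skin and 27.6, 8.26 and 10.1 normalized counts in untreated skin, while its pseudogene Rps2-ps2 had 27.9, 50.6 and 32.7 normalized counts in imiquimod skin, against 2.30, 4.13 and 7.09 in untreated skin; such copies share reads, and both values are uncertain. All 6 listed mitochondrial ribosomal and all 7 listed respiratory chain rows were lower, against 78 and 127 annotated genes. Under equal totals 1 and 2 were lower, and with single libraries left out 1 to 5 and 3 to 7. The 4 listed subunits of eIF2B, the exchange factor that recycles initiation factor eIF2, were lower by more. Eif2b1 had 1828, 1443 and 1705 normalized counts in imiquimod skin, against 6931, 8827 and 4666 in untreated skin (log2 difference -1.995 with SE 0.33, limma adjusted p = 0.0029). Eif2b5 had 3205, 2614 and 2890.3 normalized counts in imiquimod skin, against 10922, 13954 and 7940.4 in untreated skin (log2 difference -1.88 with SE 0.31, limma adjusted p = 0.0029). Eif2ak2, the kinase PKR that is switched on by double-stranded RNA and blocks eIF2, had 10969, 14976 and 12655 normalized counts in imiquimod skin, against 993, 915 and 1305 in untreated skin (log2 difference 3.59 with SE 0.29, limma adjusted p = 0.00023).

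Genes of microRNAs formed 9 listed rows, 3 higher and 5 lower. A read on such a row comes from total RNA over the hairpin or its host transcript and does not measure the mature molecule. The mature sequences of 5 of these genes are shown with the seed, bases 2 to 8, in capitals, because the rows were called and their products are known from skin or immune cells, a choice made after the values were seen; no seed was shared among the 9 genes' products.
Mir155, rno-miR-155-5p: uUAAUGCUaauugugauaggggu
Mir142, rno-miR-142-3p: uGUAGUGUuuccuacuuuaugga
Mir3545, rno-miR-203b-3p: uUGAACUGuuaagaaccacugg
Mirlet7b, rno-let-7b-5p: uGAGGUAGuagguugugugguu
Mir675, rno-miR-675-3p: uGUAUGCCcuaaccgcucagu
Mir155, whose product is made by activated macrophages and lymphocytes, had 3, 4 and 3 reads in imiquimod skin and none in untreated skin, so it lies at the floor and no fold is given. Mir142, which marks blood cells, had 104, 65.8 and 52.3 normalized counts in imiquimod skin, against 1.15, 5.17 and 16.2 in untreated skin (log2 difference 3.56 with SE 0.77, limma adjusted p = 0.0071). Mir3545, which RefSeq pairs with rno-miR-203b, had 6.97, 5.06 and 12.3 normalized counts in imiquimod skin, against 71.4, 76.4 and 65.9 in untreated skin (log2 difference -3.06 with SE 0.36, limma adjusted p = 0.00090). Mir675, which lies in the imprinted H19 transcript, had 361, 1358 and 1721 normalized counts in imiquimod skin, against 3364, 3227 and 4155 in untreated skin (log2 difference -1.91 with SE 0.62, limma adjusted p = 0.026), with -1.22 without imiquimod replicate 1, and leaving out any 1 untreated library or scaling to equal totals ended its call. Mirlet7b had at most 1 read per imiquimod library and 2.30, 16.5 and 4.05 normalized counts in untreated skin.

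Some of the called genes lay in unbroken runs along the genome. In the RefSeq gene order, 48 runs of at least 4 consecutive protein-coding genes were all listed and all called in 1 direction, 29 higher and 19 lower, and they held 221 of 4239 called genes placed in it. The longest, of 9 genes, was the Gimap cluster with Tmem176b and Tmem176a beside it, where differences lay between 2.09 and 3.48. Runs of 7 joined Fas, Ch25h, Lipa and 4 Ifit genes, the SLAM receptors from Cd244 to Slamf6, and the Clec4 lectins. Ch25h, which makes 25-hydroxycholesterol, had 1093, 987 and 1211 normalized counts in imiquimod skin, against 70.3, 23.8 and 42.6 in untreated skin (log2 difference 4.69 with SE 0.43, limma adjusted p = 0.00036). Its neighbour Lipa, the lysosomal acid lipase, had 6076, 3553 and 5342 normalized counts in imiquimod skin, against 1229, 1216 and 967 in untreated skin (log2 difference 2.11 with SE 0.31, limma adjusted p = 0.0021). Cd244, a SLAM receptor of natural killer cells, had 3689, 4234 and 4154 normalized counts in imiquimod skin, against 184, 155 and 174 in untreated skin (log2 difference 4.55 with SE 0.25, limma adjusted p = 7.4e-05). In the run of SLAM genes Cd48 was the weakest at 2.06, and its call was lost without imiquimod replicate 2 (limma adjusted p = 0.064), imiquimod replicate 3 (0.060) or untreated replicate 1 (0.051). In the run with the Ifit genes Fas was the weakest at 1.08, and its call was lost in the scaling without the 100 highest rows. Runs were counted under the deposited scaling only. Neighbouring copies of a family can share reads, and then count as 1 observation rather than several.

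Some runs joined genes that do not all belong to 1 family, and the 3 below were picked after their values were seen. The longest lower run, of 6 genes, went from Grin2c through Fdxr, Fads6 and Ush1g to Otop2 and Otop3, with differences from -6.24 to -1.24. Otop3, a proton channel, had 18.3, 6.07 and 6.54 normalized counts in imiquimod skin, against 203, 335 and 284 in untreated skin (log2 difference -4.74 with SE 0.48, limma adjusted p = 0.00051). Grin2c, a subunit of glutamate receptors, had 4.35, 0 and 2.45 normalized counts in imiquimod skin, against 41.5, 54.7 and 73.0 in untreated skin (log2 difference -4.40 with SE 0.65, limma adjusted p = 0.0021). A run of 5 higher genes joined Swap70, Sbf2, Adm, Ampd3 and Rnf141, with a median of 1.58, and another joined Ifnar2, Il10rb, Ifnar1 and Ifngr2, the receptor chains of interferons and interleukin-10, with Tmem50b at a median of 1.96.

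**Figure D4:**
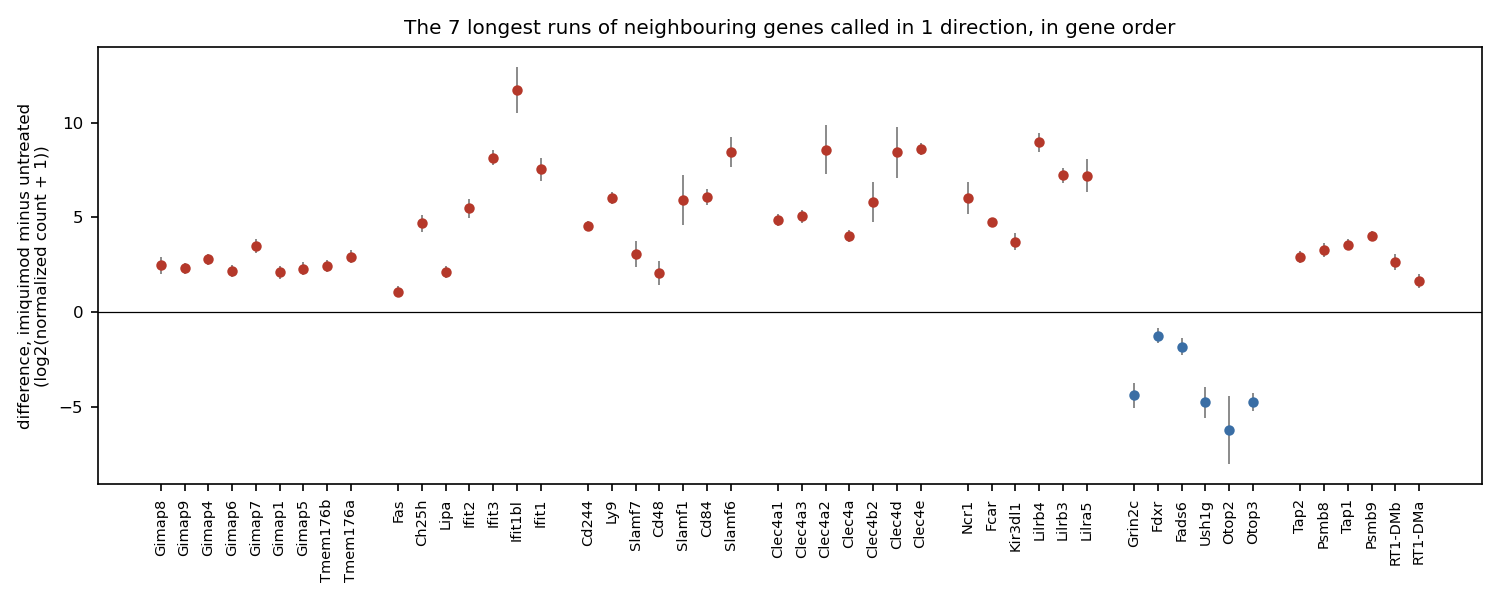
Differences (imiquimod minus untreated, log2(normalized count + 1)) with standard errors from limma for the members of the 7 longest runs of neighbouring genes, in gene order, n = 3 libraries per group. Of these runs 6 are higher in every member and 1 is lower, from Grin2c to Otop3; the largest difference is Ifit1bl at 11.75.

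The shares of higher and lower calls differed with gene length. The span of a gene in RefSeq, introns included, was known for 95.4% of the rows with a symbol. Its median was 27.7 kb for genes called higher, 17.9 kb for genes called lower and 15.5 kb for all annotated protein-coding genes. Of 657 listed genes under 5 kb, 35.3% were higher and 56.5% lower. Of 701 genes of 50 to 100 kb, 54.8% were higher and 30.7% lower, and of 727 genes over 100 kb 47.0% and 32.7%. Under equal totals the shares higher and lower were 36.5% and 38.7% under 5 kb and 61.3% and 23.4% at 50 to 100 kb, and without the 100 highest rows 31.7% and 58.9%, and 43.5% and 31.5%. Over 100 kb they were 53.6% and 24.1% under equal totals and, nearly even, 36.6% and 35.5% without the 100 highest rows. In the class of 5 to 20 kb, 665 genes were higher and 696 lower, which equal totals turned to 689 higher and 522 lower. Leaving out the 67 keratin and keratin-associated rows changed the shares under 5 kb to 36.9% and 54.4%. The table also lists more of the long genes, 28.4% of those over 100 kb against 10.7% of those under 5 kb.

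**Figure D5:**
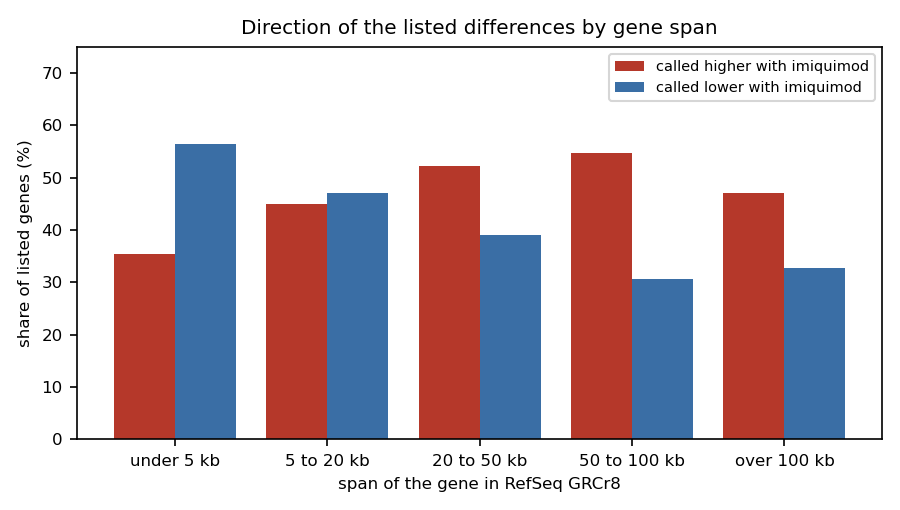
Share of listed genes called higher (red) and lower (blue) with imiquimod, in percent, in 5 classes of gene span. The share called lower is 56.5% under 5 kb and 30.7% between 50 and 100 kb.

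Rows that carry no proper gene symbol made up 1006 of the 6025. Of these, 464 were higher and 356 lower, a share of 81.5% against 89.0% of rows with a symbol, and their median level was 73.4 normalized counts against 571. They made up 168 of the 378 rows at 0 in untreated skin and 67 of the 180 at 0 in imiquimod skin. Among families named by structure alone, 33 of 75 Tmem genes were higher and 37 lower, and 22 of 65 Fam genes were higher and 36 lower; under equal totals this turned to 34 higher and 25 lower Tmem genes and 25 of each for Fam. Tmem56 had 127, 111 and 183 normalized counts in imiquimod skin, against 5069, 6164 and 3622 in untreated skin (log2 difference -5.13 with SE 0.34, limma adjusted p = 0.00013). Tmem150b had 1300.3, 1401 and 1856 normalized counts in imiquimod skin, against 50.7, 49.6 and 21.3 in untreated skin (log2 difference 5.28 with SE 0.42, limma adjusted p = 0.00023). Fam57b, which makes ceramide, had 63.6, 5.06 and 14.7 normalized counts in imiquimod skin, against 1448, 1367 and 840.1 in untreated skin (log2 difference -6.02 with SE 0.85, limma adjusted p = 0.0018). Zinc finger genes named Zfp or Znf, most of them of unknown role, were higher in 25 and lower in 14 of 46 rows, and single left-out libraries left 13 to 29 higher and 9 to 13 lower.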

How the data were processed

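RNA sequencing of rat back skin gave 3 imiquimod and 3 untreated libraries. The authors deposited, per the file headers and values, log2(normalized count + 1) per gene, already restricted to rows that differ. Upstream tools, per the submitters' processing notes, were STAR 2.5.3a, bcl2fastq and DESeq2; the build, annotation, counter, strand setting and selection rule were not given in the sources used here. Whole reads were recovered by dividing the values by what 1 read is worth in each library; 100% of values up to 2000 reads came out whole within 0.01. Differences were tested with limma 3.58.1 in R 4.3.3 (lmFit and eBayes, Benjamini-Hochberg over 6025 rows, threshold 0.05), which was tested on simulated data first. The simulated rows were mostly unchanged and not picked for a difference, so that run does not bear on the calls among these picked rows. Tables and figures used Python 3.11.15, numpy 2.4.6, pandas 2.3.3 and matplotlib 3.10.9.

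The members and lists were chosen with earlier results of these data known, and family patterns were corrected once the symbols were seen. Genes were named by a rule: per family of at least 5 rows, up to 2 called in each direction with the smallest adjusted p and a mean of at least 100 normalized counts; the 10 highest of each group; the 8 highest with a symbol at 0 in the other; and members of the 5 longest runs. Others are said to be chosen after their values were seen. Promoters, microRNAs, spans and gene order are from RefSeq GRCr8. Alternatives covered scaling, low-count filters, the pseudocount, the mean trend, the threshold, a replicate block and each library left out. Of all rows, 62 were identical to another row.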

Additional observations from a re-analysis of the deposited data

Results flagged for a closer look

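The table of imiquimod with epidural lidocaine against imiquimod alone, which enters no comparison above, lists 24 of the 378 rows at 0 reads in all untreated libraries. In 15 of these 24, all 3 libraries with lidocaine were above 0 reads, and Acod1 and Il6 are among them. What draws attention is a signal in libraries outside the comparison for genes without a read in untreated skin. Rats given lidocaine had also been given imiquimod for 6 days, so this signal is not independent of the comparison above. Only 399 genes are listed for the lidocaine comparison, which limits the rows that could appear.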

How the results depend on the processing

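The number of rows called, 5287, was 3280 at an adjusted p threshold of 0.01, with 1391 of them lower, against 2456 lower at 0.05. Adjusting as if all 23154 protein-coding genes had been tested left 3733. Equal totals gave 4797, equal totals without the 100 highest rows, an alternative chosen after seeing the data, 4978, and a pseudocount of 0.1 gave 4998. Counting identical rows once, also chosen after seeing the data, gave 5287. Leaving out single libraries gave 4412 to 5408 calls, 2381 to 3046 higher and 2007 to 2362 lower, 375 to 446 rows at 0 in untreated skin and 178 to 246 at 0 in imiquimod skin. Rows with at most 3 reads in each library of a group numbered 463 for untreated and 261 for imiquimod skin. The labels number the replicates, and same-numbered libraries deviated with r = -0.024, -0.232 and -0.014 across rows. These values show no pairing by number, but deviations among only 3 libraries a group cannot exclude one. A replicate block gave 4756 calls. No named gene changed direction under the alternatives run, while the balance of higher and lower calls turned with the scaling over all rows, in some abundance classes, in genes of 5 to 20 kb and for the Tmem genes, as given above. Of 321 named genes, 18 lost their call when 1 library was left out, 14 under equal totals and 6 without the 100 highest rows; the cause was not tested. With 3 libraries a group and rows picked for their difference, low-count rows are the least certain.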
